A study of Mus musculus with 12 samples.

Results

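The genes described here are 10 regulators that steer mesenchymal cells towards fat, bone or cartilage, the fates that compete with muscle. They were chosen by name, by a rule without a measured value but with earlier results of these data known, and are 10 of the 22209 genes whose promoters were counted. Start sites of a gene within 1 kb of each other were joined into 1 promoter, which gave the members 16 promoters of 39674 in all. The fat regulators are Pparg, Cebpa, Cebpb, Cebpd and Prdm16, the bone regulators are Runx2, Sp7, Msx1 and Msx2, and the cartilage regulator is Sox9.

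The study used ChIP-seq to map 6 histone marks in the C2C12 line, myoblasts from C3H mouse muscle that fuse into myotubes when serum is withdrawn. Myoblasts were grown in 10% serum and collected near confluence. Myotubes were collected about 5 days after serum withdrawal and freed from unfused cells by light trypsin treatment. Both came from passages 15 to 18 according to the labels, while the methods text gives a wider range, and all libraries were made with 15 PCR cycles from fragments of about 250 bp with adaptors. There was 1 library per mark and cell type, 12 in all, and no input library was used here. Every comparison below is therefore between 2 libraries and not between replicated conditions. Myoblast libraries held from 1858771 reads (H3K27ac) to 7033100 reads (H3K36me3), with a median of 5383498, and myotube libraries from 3298694 (H3K4me3) to 6271899 (H3K4me1), with a median of 4741514.

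PPARγ and C/EBPα together drive the fat cell program, after C/EBPβ and C/EBPδ have acted early in differentiation, and PRDM16 directs precursors towards brown fat. RUNX2 is required for bone formation and acts before SP7 (osterix), while SOX9 is required for cartilage. MSX1 and MSX2 are homeobox factors of limb and skull precursors, and MSX1 can hold back muscle differentiation. H3K4me3 and H3K27ac mark active promoters, H3K4me2 promoters and enhancers, H3K4me1 mainly enhancers, H3K36me3 the bodies of transcribed genes, and H3K27me3 genes under Polycomb repression.

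The libraries were first compared with their labels at 12 muscle genes with 21 promoters. For H3K4me3, 16 of these promoters had enough reads for the rule given below. Of these, 11 were higher in myotubes and 0 lower, against 6.42% and 4.88% of all promoters with enough reads. Acta1, the skeletal actin gene, held 4 reads in myoblasts and 215 in myotubes, Casq2 1 and 158, Ckm 2 and 44, Myh3 6 and 100, and Myog, the myogenin gene, 13 and 89. Promoters of Mef2c, Tnni1 and Tnnt3 were also called higher. Des, Myod1 and Myf5 already carried H3K4me3 in myoblasts, with 125, 34 and 49 reads at their strongest promoter against 184, 54 and 30 in myotubes. Myf6 held 3 and 4 H3K4me3 reads, but 5 and 26 reads of H3K27ac, called higher as centred and not by total reads. For H3K4me3, Des, Myod1 and Myf5 were enriched under both labels and not called. For H3K27me3, both muscle promoters with enough reads were lower, against 6.75% of all, Acta1 from 31 to 6 reads and Myh3 from 27 to 6.

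A read count at a promoter is the number of fragment midpoints within 1 kb of the start, and its fold value is that count over the count expected at the mean of the genome. A promoter was called enriched where the lower 95% Poisson bound of its fold value was above 2. For H3K4me3 this took 10 reads in myoblasts and 11 in myotubes, and for H3K27me3 19 and 15. Intervals cover counting error only, since PCR copies of a fragment are not independent molecules.

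H3K4me3 was enriched at 9 of 16 member promoters in myoblasts, where 31.6% of all promoters were, and at 9 in myotubes, where 32.6% were. H3K27ac was enriched at 9 and 8 member promoters, against 31.3% and 31.2% of all, and H3K4me2 at 11 and 10, against 40.1% and 38.2%. H3K4me1 was enriched at 6 member promoters in myoblasts and 2 in myotubes, against 25.9% and 24.6%. H3K36me3 was enriched at 1 in each cell type, against 21.7% and 19.4%, and H3K27me3 at 2 in myoblasts and 0 in myotubes, against 7.65% and 4.08%.

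**Figure D1:**
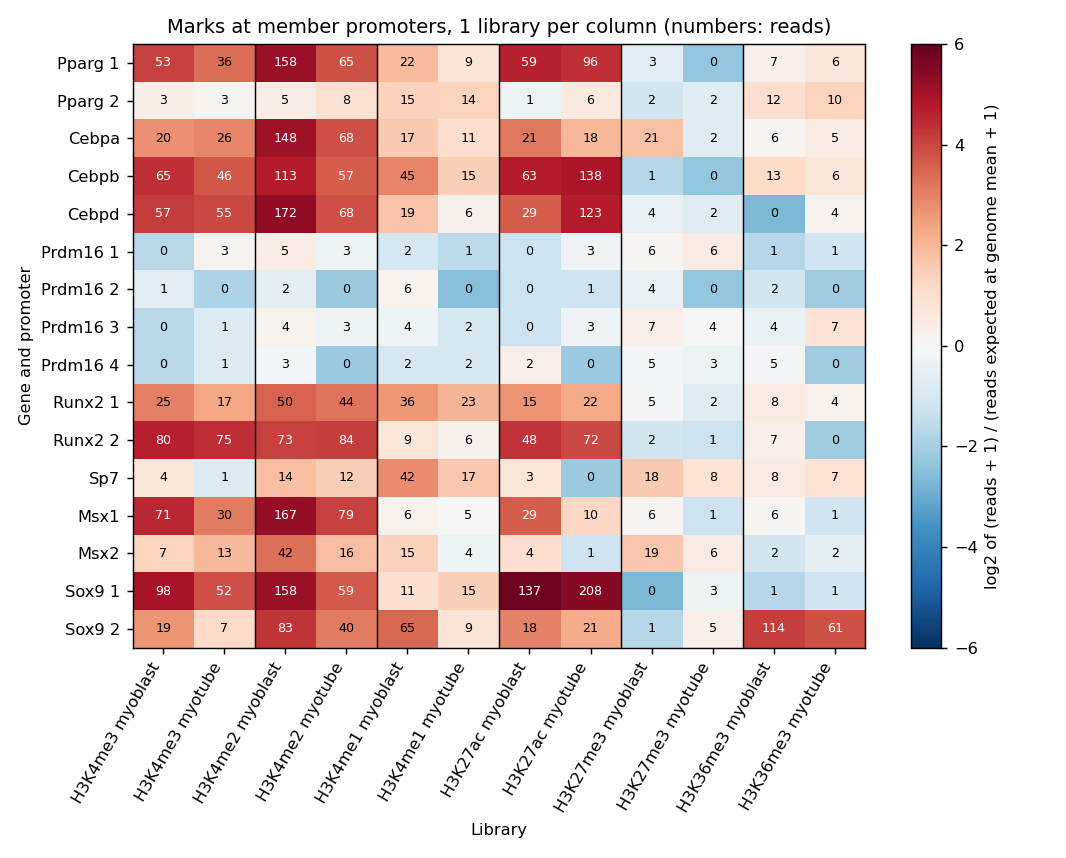
Reads of 6 marks at the 16 member promoters (rows) in the 12 libraries (columns). Numbers are reads within 1 kb of the start, and colours give log2 of reads plus 1 over expected reads plus 1, so that Prdm16, with at most 7 reads in any library, stays pale or blue while Sox9 promoter 1 reaches 208 reads of H3K27ac.

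Pparg, the master regulator of fat cells (chr6:115311239-115440419, plus strand, mm9), has 2 promoters that differed in H3K4me3, H3K4me2 and H3K27ac. Promoter 1, which starts the widely used transcripts, held 53 H3K4me3 reads in myoblasts and 36 in myotubes, or 24.4-fold and 14.0-fold the genome mean. Its H3K27ac count was 59 and 96 reads, or 40.6-fold and 26.0-fold. Promoter 2, which starts at position 115372084 and makes the fat cell form of the protein, held 3 H3K4me3 reads in each cell type and 1 and 6 reads of H3K27ac. It was enriched for none of the 6 marks but overlapped a deposited H3K4me1 peak in both cell types, with 15 and 14 reads. Neither promoter was enriched for H3K27me3, with 0 to 3 reads in any library.

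The sequences before these starts are shown because they differ as sharply as the marks. RefSeq promoter sequences (250 bases before to 50 after the start, assembly GRCm38.p6) were held for 7 of the 10 members, in 9 entries, and each was found once in mm9. Cebpd, Sp7 and Sox9 had no entry. The 250 bases before the start are printed 5′ to 3′ with each CpG in capitals. The entry for promoter 1 (chr6:115310912-115311161, plus strand) starts 77 bp from the promoter used here, and that for promoter 2 (chr6:115371834-115372083, plus strand) at the same base.

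Pparg promoter 1: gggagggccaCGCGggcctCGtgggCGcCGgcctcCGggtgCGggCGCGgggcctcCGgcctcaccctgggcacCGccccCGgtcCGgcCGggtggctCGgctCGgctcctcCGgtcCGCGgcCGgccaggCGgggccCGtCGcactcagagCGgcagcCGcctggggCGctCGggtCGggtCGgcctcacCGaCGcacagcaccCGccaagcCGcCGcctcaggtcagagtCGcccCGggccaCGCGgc

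Pparg promoter 2: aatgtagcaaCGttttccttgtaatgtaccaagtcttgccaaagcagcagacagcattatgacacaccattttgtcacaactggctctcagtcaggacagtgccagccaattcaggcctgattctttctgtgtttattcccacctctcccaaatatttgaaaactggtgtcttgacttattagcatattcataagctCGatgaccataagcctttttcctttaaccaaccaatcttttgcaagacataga

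The first held 38 CpGs in these 250 bases and the second 2. Over the 300 bases of each entry, the observed to expected CpG ratio was 0.909 for promoter 1 and 0.170 for promoter 2, against a median of 0.384 over 32841 promoters of the table, and 88.1% and 24.1% of these had a lower ratio. Another Pparg entry, which starts 1128 bp from promoter 1, had a ratio of 0.467.

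Cebpa, which acts with Pparg in fat cells (chr7:35904312-35906945, plus strand), was the 1 member promoter enriched for both H3K4me3 and H3K27me3. In myoblasts it held 20 H3K4me3 reads (9.22-fold) and 21 H3K27me3 reads (3.83-fold, interval 2.37 to 5.85). Its H3K27ac went from 21 reads in myoblasts to 18 in myotubes (14.4-fold to 4.87-fold), and H3K4me2 from 148 to 68 (44.1-fold to 18.3-fold). Neither was called by the centred rule given below, but by total reads both were lower, at 0.337 and 0.415. In myotubes H3K4me3 stood at 26 reads and H3K27me3 at 2. Within 500 bp of the start, or with the bound set at 3, H3K27me3 was not enriched in myoblasts either. H3K4me3 and H3K27me3 were both enriched at 0.610% of all promoters in myoblasts and 0.176% in myotubes. They were measured in separate libraries of cell populations, so both marks need not lie on the same cells or alleles. Along the gene, H3K27me3 in myoblasts was highest after the start, with 10 reads (7.29-fold) in each of the bins of 500 bp centred 750, 1250 and 1750 bp after it, and the highest H3K4me3 bin in myoblasts, with 7 reads, lay just before the start. A second deposited H3K4me3 peak of myoblasts (chr7:35904786-35905861) covers part of the same stretch after the start, where H3K4me3 held 4, 3 and 2 reads, so these counts do not separate the marks.

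Cebpa promoter (chr7:35904062-35904311, plus strand, 22 CpGs): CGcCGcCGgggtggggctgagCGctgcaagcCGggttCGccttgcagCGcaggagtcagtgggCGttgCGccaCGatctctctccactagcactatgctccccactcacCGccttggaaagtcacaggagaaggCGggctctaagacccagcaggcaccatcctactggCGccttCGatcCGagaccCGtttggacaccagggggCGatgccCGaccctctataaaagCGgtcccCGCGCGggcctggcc

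Cebpb and Cebpd, which act early in fat cell differentiation, carried active marks in both cell types. Cebpb (chr2:167514415-167515918, plus strand) held 65 H3K4me3 reads in myoblasts and 46 in myotubes, and 63 and 138 reads of H3K27ac. A start site of Tmem189 on the other strand lies 907 bp after the Cebpb start, inside its window, so its reads cannot be given to Cebpb alone. Cebpd (chr16:15887379-15888559, plus strand), which the annotation lists as a pseudogene and which was added by name, held 57 and 55 H3K4me3 reads and 29 and 123 reads of H3K27ac. Neither was enriched for H3K27me3, with 0 to 4 reads.

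Prdm16, the brown fat regulator (chr4:153690234-154010982, minus strand), was the member with the fewest reads. Its first promoter held 0 and 3 H3K4me3 reads, 0 and 3 of H3K27ac, and 6 of H3K27me3 in both cell types. Its other 3 promoters, inside the gene, held at most 1 read of H3K4me3 and 3 of H3K27ac, and 0 to 7 of H3K27me3. The upper bound of the count of 0 in the myoblast H3K4me3 library is 1.7-fold. No mark was enriched at any of the 4. The first promoter was rich in CpG all the same, with an observed to expected ratio of 0.939, above 90.3% of the table, which is why it is shown.

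Prdm16 promoter 1 (chr4:154010983-154011232, minus strand, 22 CpGs): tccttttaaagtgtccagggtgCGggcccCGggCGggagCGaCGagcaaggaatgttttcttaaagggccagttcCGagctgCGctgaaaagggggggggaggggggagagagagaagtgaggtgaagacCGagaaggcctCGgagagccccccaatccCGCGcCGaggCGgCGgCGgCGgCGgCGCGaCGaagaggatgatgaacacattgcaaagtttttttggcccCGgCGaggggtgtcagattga

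Runx2, the first regulator of bone (chr17:44632936-44951746, minus strand), carried active marks at both of its promoters. The distal promoter 1 held 25 H3K4me3 reads in myoblasts and 17 in myotubes (11.5-fold and 6.59-fold), and 36 and 23 reads of H3K4me1. The inner promoter 2, starting at position 44873597, held 80 and 75 reads of H3K4me3 (36.9-fold and 29.1-fold) and 48 and 72 of H3K27ac. A start of Gm10497 on the other strand lies 803 bp after it, inside its window, so these reads cannot be given to Runx2 alone. Its H3K4me3 peak was 5411 bp wide in myoblasts and 4634 bp in myotubes, where the median peak was 2179 and 1594 bp. The RefSeq entry near promoter 1 had an observed to expected CpG ratio of 0.143, lower than that of Pparg promoter 2.

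Sp7, which acts after Runx2 (chr15:102187040-102197285, minus strand), held 4 and 1 reads of H3K4me3 and 3 and 0 of H3K27ac. Its promoter was enriched for H3K4me1, with 42 reads in myoblasts (8.29-fold) and 17 in myotubes (3.46-fold), and in myoblasts also for H3K4me2, with 14 reads (4.17-fold), against 12 in myotubes that were not. H3K27me3 stood at 18 and 8 reads. The 18 reads were 1 short of the 19 needed for a call in that library.

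Msx1 (chr5:38211724-38215822, minus strand) held 71 reads of H3K4me3 (32.7-fold), 167 of H3K4me2 and 29 of H3K27ac (19.9-fold) in myoblasts, where promoters enriched for H3K4me3 had medians of 29-fold for H3K4me3 and 22.7-fold for H3K27ac. Myotubes held 30, 79 and 10. Msx2 (chr13:53562250-53568443, minus strand) held 7 and 13 reads of H3K4me3 and 19 and 6 of H3K27me3. Its 19 reads (3.46-fold) just met the call in myoblasts, and H3K27me3 was its only mark enriched there besides H3K4me2, with 42 reads. In myotubes its 13 H3K4me3 reads (5.04-fold) were enriched. The centred ratio of 1.79 (0.665 to 5.31) was not called, and no deposited H3K4me3 peak overlapped the window in either cell type. Within 10 kb of the Msx2 start H3K4me3 went from 34 to 24 reads, at 0.634 (0.360 to 1.10).

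Msx1 promoter (chr5:38215825-38216074, minus strand, 20 CpGs): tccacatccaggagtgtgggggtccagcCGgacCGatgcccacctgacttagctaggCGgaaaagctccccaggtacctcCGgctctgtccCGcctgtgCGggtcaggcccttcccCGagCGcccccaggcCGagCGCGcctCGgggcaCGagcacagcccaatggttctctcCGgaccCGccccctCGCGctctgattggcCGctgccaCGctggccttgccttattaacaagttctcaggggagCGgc

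The entries of Msx1 and Pparg promoter 2 each held 2 CCAAT boxes (CCAAT on either strand), a motif found in 37.4% of the table's promoters, and those of Prdm16, Msx2 and the other Pparg entry held 1. The motif TATAAA, in 13.6% of them, was found in the entries of Cebpa and Cebpb and in the same other Pparg entry, and the E-box CAGCTG, in 16.3%, in no member entry. A match is a description of the letters and not of a bound site.

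Sox9, the cartilage regulator (chr11:112643538-112649074, plus strand), held the most H3K27ac of the members. Promoter 1 had 137 reads in myoblasts (94.2-fold, above 99.2% of all promoters) and 208 in myotubes (56.3-fold). Its H3K4me3 count was 98 and 52 reads (45.2-fold and 20.2-fold). A start of the long noncoding BC006965 on the other strand lies 248 bp before it. Promoter 2 lies inside the gene, at position 112646042, and held 114 and 61 reads of H3K36me3 (20.7-fold and 18.1-fold) beside 19 and 7 of H3K4me3.

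The question of the comparison is which of these regulators gained or lost marks as myoblasts became myotubes. Ratios of myotubes to myoblasts were centred on the median ratio of all promoters whose 2 libraries summed to 20 reads or more. That median, scaled by total reads, was 0.871 for H3K4me3, 0.598 for H3K4me2, 0.850 for H3K4me1, 0.608 for H3K27ac, 0.810 for H3K27me3 and 1.03 for H3K36me3. A promoter was called higher at a centred ratio of at least 2 and lower at 0.5 or less, where the exact 95% interval left out 1. Shares of all promoters or bodies called are for this rule. None is given for calls by total reads or at other settings, so those counts have no background. Less signal in a population may be less of a mark per cell or fewer marked cells, and these cannot be told apart.

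Of the 10 member promoters with enough H3K4me3 reads, 0 were called higher and 2 lower, where 6.42% and 4.88% of all promoters with enough reads were. Msx1 was lower at 0.408 (interval 0.257 to 0.633), and Sox9 promoter 2 at 0.356 (0.126 to 0.883), with 26 reads in all. Within 500 bp Msx1 stood at 0.581, which was not called, and Sox9 promoter 2 lost its call at 4 of 12 other settings. Sox9 promoter 1 stood at 0.512 (0.359 to 0.724), short of the call, and by total reads at 0.446 (0.313 to 0.631), which met it. The median of the 10 was 0.670, against 1 by construction for all. The other 6, which were Pparg promoter 2, Sp7 and the 4 of Prdm16, held too few reads.

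For H3K27ac, 1 of 9 member promoters was higher and 1 lower, against 17.0% and 13.8% of all. Cebpd was higher, from 29 to 123 reads, at a ratio of 2.74 (1.82 to 4.27). Scaled by total reads it was 1.67 and not called. The members then split into 0 higher and 3 lower, where the median ratio of all promoters was 0.608. Msx1 was lower, from 29 to 10 reads, at 0.223 (0.0970 to 0.471), and was called under both scalings. Cebpb stood at 1.42 (1.04 to 1.94), and Sox9 promoter 1 at 0.982 (0.788 to 1.23).

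**Figure D2:**
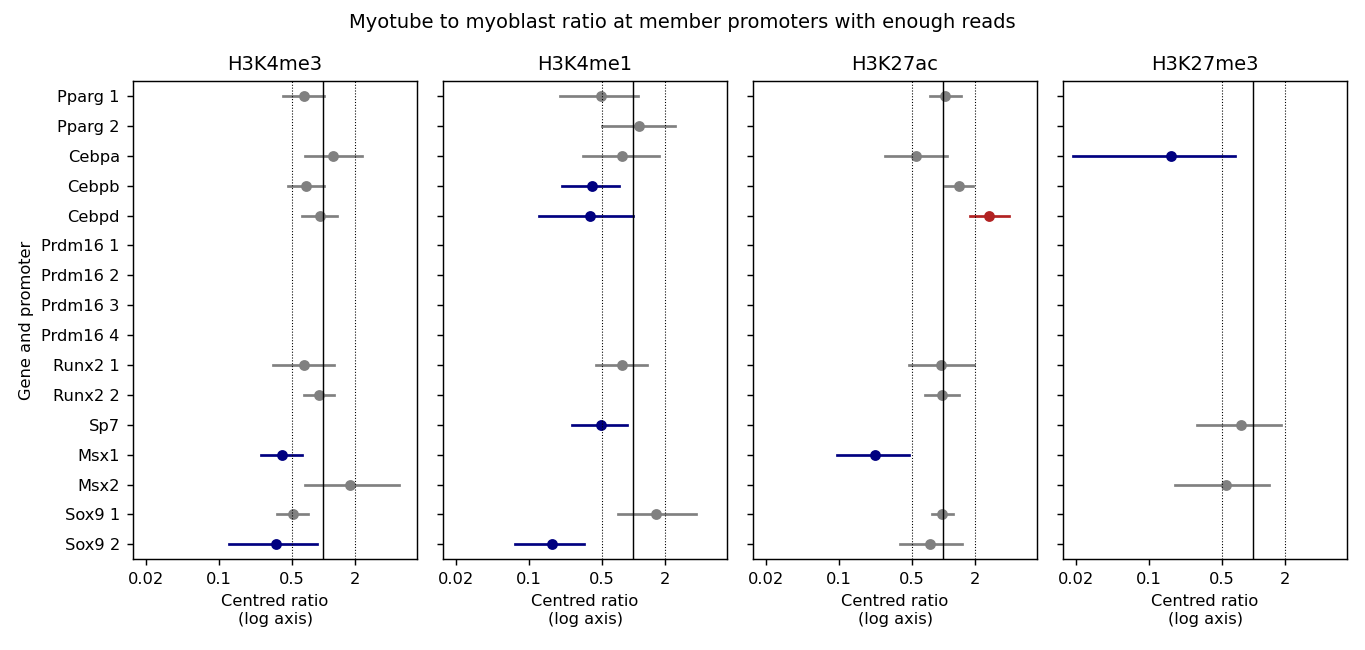
Centred ratio of myotube to myoblast reads (log axis) for 4 marks at the member promoters with at least 20 reads, with exact 95% intervals. Blue marks promoters called lower, red those called higher and grey those not called, and dotted lines show 0.5 and 2. Msx1 lies left of 0.5 for both H3K4me3 and H3K27ac, and Cebpd lies right of 2 for H3K27ac.

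With ratios centred, H3K4me1 gave the most calls, all downward, while by total reads H3K4me2 gave the most. Of 9 member promoters 0 were higher and 4 lower, where 14.1% and 13.0% of all were. Sox9 promoter 2 was lower, from 65 to 9 reads, at 0.168 (0.0736 to 0.339). Cebpb fell from 45 to 15 reads, at 0.405 (0.210 to 0.740), Cebpd from 19 to 6, at 0.383 (0.125 to 0.999), and Sp7 from 42 to 17, at 0.491 (0.262 to 0.882). The last 2 lay close to the limits of the call and were lost under 6 and 5 of 12 other settings, and Cebpb under 3, with a ratio of 0.607 within 500 bp and 0.854 within 10 kb. Within Sox9, the bins of 500 bp centred 2750 and 3250 bp after its first start held 21 and 25 reads in myoblasts and 2 and 3 in myotubes.

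For H3K4me2, 0 of 11 member promoters were higher and 0 lower, against 11.5% and 9.55% of all. Scaled by total reads 8 were lower, where the median ratio of all promoters was itself 0.598 and the share called is not given. This count thus depends on the scaling. For H3K27me3 only 3 member promoters held enough reads, and 0 were higher and 1 lower, against 5.11% and 6.75%. Cebpa was lower, from 21 to 2 reads, at 0.165 (0.0187 to 0.673). Within 500 bp its ratio was 0.511, and the call was lost under 4 of 12 other settings. Msx2 stood at 0.545 (0.178 to 1.42). For H3K36me3 2 promoters held enough reads, with 0 higher and 0 lower, against 8.74% and 9.90%.

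**Figure D3:**
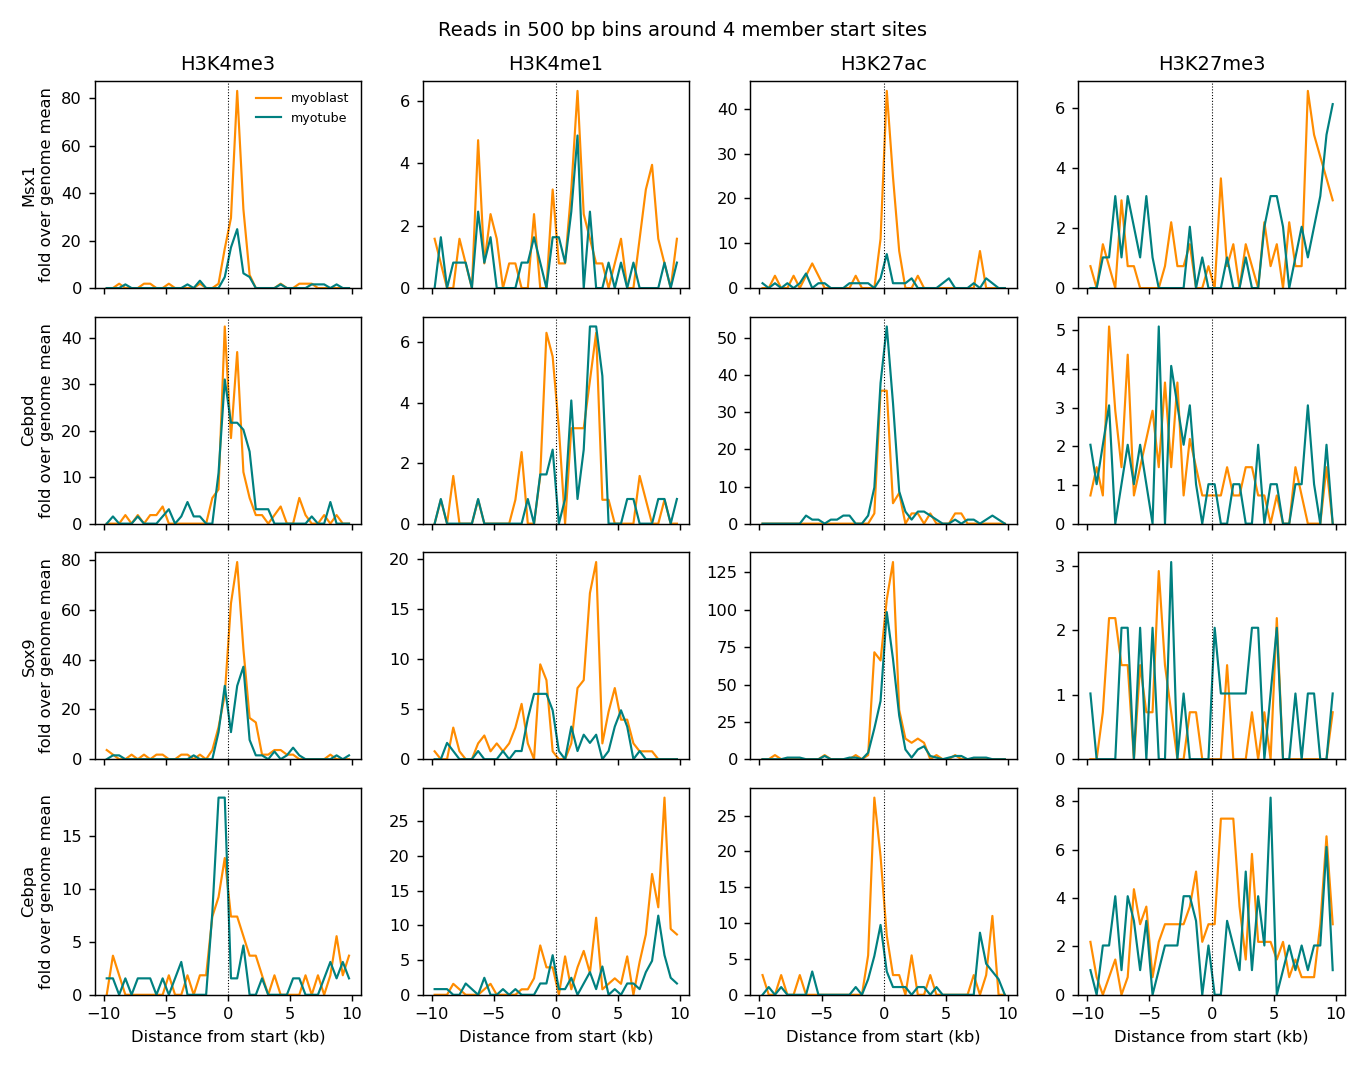
Fold over the genome mean in bins of 500 bp, up to 10 kb either side of the first start of Msx1, Cebpd, Sox9 and Cebpa (rows), for 4 marks (columns) in myoblasts (orange) and myotubes (teal). These 4 genes were chosen after their values were seen. The Msx1 H3K4me3 peak reaches 83.0-fold in myoblasts and 24.8-fold in myotubes, and vertical scales differ between panels.

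Over whole gene bodies, H3K36me3 was highest at Sox9, with 143 reads in myoblasts (9.39-fold) and 70 in myotubes (7.50-fold). It was enriched over 4 of 10 member bodies in myoblasts, which were Sox9, Cebpb, Pparg and Runx2, and over 1 in myotubes, which was Sox9, where 38.4% and 36.5% of all bodies were enriched. Tmem189 on the other strand covers 60.4% of the Cebpb body, so its 19 reads in myoblasts cannot be given to Cebpb alone. The Pparg body held 1048 and 326 reads, or 2.95-fold and 1.5-fold. It was called lower at the limit, with a ratio of 0.5 (0.440 to 0.567), and at 0.507 by total reads was not. No other body was lower and 0 were higher, against 6.78% and 7% of bodies with enough reads. The Runx2 body held 2522 and 973 reads, at a ratio of 0.620 (0.575 to 0.668), and Supt3h on the other strand covers 11.8% of it. Prdm16 stood at 0.442-fold and 0.549-fold over 321 kb.

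H3K27me3 was enriched over 1 member body in myoblasts and 0 in myotubes, against 10.2% and 8.73% of all. It was Cebpa, with 39 reads in myoblasts (5.40-fold, interval 3.84 to 7.38) and 7 in myotubes (1.36-fold). Cebpa was also the 1 body called lower, at 0.220 (0.0832 to 0.498), where 2.37% were lower and 4.19% higher, with 0 members higher. In the wider window of 10 kb either side of its start, added after seeing the data, H3K27me3 went from 148 to 85 reads, at a ratio of 0.743 (0.562 to 0.977) that was not called. The Prdm16 body, not enriched, held 1171 and 626 H3K27me3 reads (1.33-fold and 0.996-fold), at 0.657 (0.595 to 0.724), which was not called. Within 10 kb of the first Prdm16 start the mark went from 109 to 43 reads, at 0.511 (0.350 to 0.733), also not called.

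**Figure D4:**
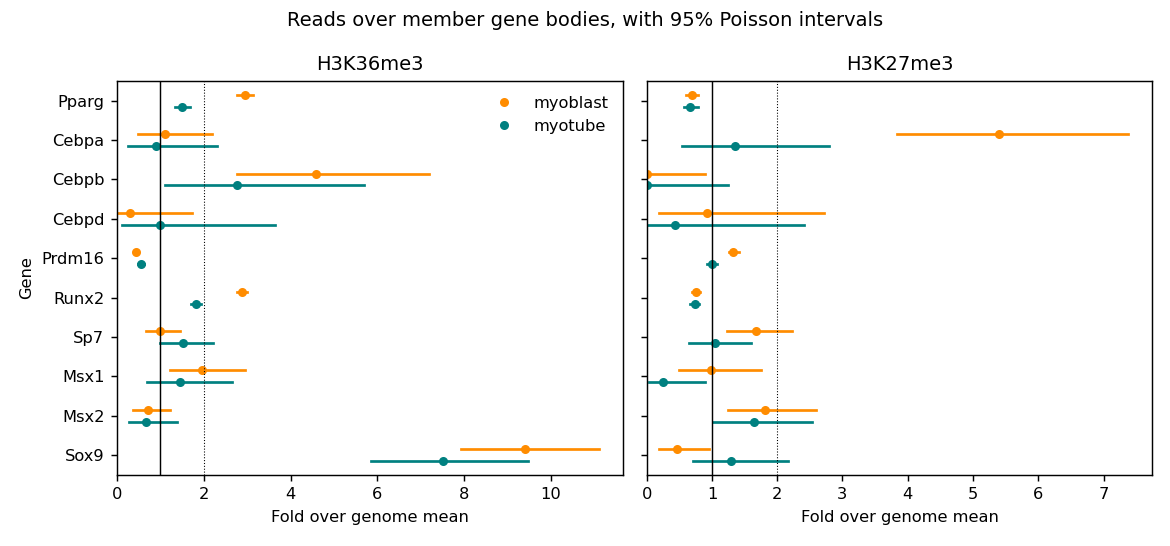
Fold over the genome mean of H3K36me3 and H3K27me3 over the bodies of the 10 members in myoblasts (orange) and myotubes (teal), with exact 95% Poisson intervals. The solid line is the genome mean and the dotted line 2 times that mean. Sox9 stands out for H3K36me3 in both cell types, and Cebpa for H3K27me3 in myoblasts.

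The long genes Runx2 and Pparg also held H3K4me1 peaks over 1 kb from every start. Runx2 held 41 such peaks in myoblasts and 21 in myotubes over 319 kb, and Pparg 13 and 12 over 129 kb. Sp7 held 1 and 5 over 10.2 kb, more per kb in myotubes than either, Sox9 1 and 0, and Prdm16 none over 321 kb. Peaks of score 100 or more were 22 and 1 in Runx2 and 5 and 0 in Pparg, so the myotube counts rest on low scores. Other genes were not counted in this way, but the whole H3K4me1 lists held 67328 peaks in myoblasts and 92623 in myotubes. Over the 44 merged Runx2 sites, H3K4me1 went from 1665 to 788 reads and H3K27ac from 388 to 594, which by total reads were ratios of 0.489 (0.448 to 0.532) and 0.602 (0.529 to 0.686). Centred on the median promoter they were 0.575 (0.527 to 0.626) and 0.991 (0.870 to 1.13), so H3K27ac was lower by total reads and not as centred. Over the 17 Pparg sites the ratios by total reads were 0.570 and 0.615, and centred 0.670 (0.556 to 0.806) and 1.01 (0.758 to 1.36). Over the 6 Sp7 sites H3K4me1 went from 72 to 61 reads, at 0.875 (0.612 to 1.25) by total reads and 1.03 (0.719 to 1.47) centred. These sites were chosen by H3K4me1 peaks of the same libraries, for Runx2 41 of myoblasts and 21 of myotubes. That choice by itself favours a lower H3K4me1 ratio, so no loss of H3K4me1 is read from these ratios.

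How many of these peaks overlap H3K27ac in myoblasts depends on which list is read. The myoblast list deposited with H3K27me3 held 36.4-fold the genome mean of H3K27ac reads and 0.804-fold of H3K27me3 reads, and the list deposited with H3K27ac held 0.588-fold and 6.76-fold, so the lists are exchanged relative to the reads. The myotube lists were not. With the lists exchanged 12 of 41 Runx2 peaks and 3 of 13 Pparg peaks overlapped H3K27ac in myoblasts, and as deposited 0 and 0. In myotubes 8 of 21 and 8 of 12 did. Counts of reads do not use these lists.

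Other genes of the same pathways were read from lists of 20 fat, 17 bone and 15 cartilage genes. Fat genes had 46 promoters, of which 13 had enough H3K4me3 reads, with 1 higher and 2 lower, where 6.42% and 4.88% of all promoters with enough reads were. Cd36, a fatty acid carrier that muscle also uses, was higher, from 3 to 41 reads, at 13.2 (4.21 to 66.6), while Lpl, from 25 to 12 reads, and Gata2, from 51 to 25, were lower. For H3K27ac 4 of 11 fat promoters were higher and 2 lower, against 17.0% and 13.8% of all, and by total reads 2 were higher and 3 lower. Klf5 was higher, from 41 to 235 reads, at 3.71, as were Ppargc1a, from 2 to 28 reads, and both promoters of Egr2, the first from 2 to 20. By total reads neither Egr2 promoter was called. Ebf1, from 32 to 15, and Gata2, from 23 to 15, were lower. For H3K4me1, 1 of 25 fat promoters was higher and 5 lower, against 14.1% and 13.0% of all, and by total reads 1 and 10. Both Egr2 promoters were among the lower ones under both scalings, the first from 42 to 16 reads and the second from 39 to 14.

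Bone genes had 32 promoters, of which 9 had enough H3K4me3 reads, with 0 higher and 2 lower, against 6.42% and 4.88% of all. Both were promoters of Spp1, the osteopontin gene, of which the second went from 50 to 12 reads, at 0.232 (0.112 to 0.441). For H3K4me2 the first was called higher, from 19 to 31 reads, at 2.46 (1.35 to 4.61), though not by total reads, at 1.47, and the second stood at 1.56 and was not called. Col1a1, the collagen gene of bone and fibroblasts, was the 1 of 7 bone promoters lower for H3K27ac, against 13.8% of all. It went from 29 to 15 reads, at 0.335, and by total reads 4 bone promoters were lower. Alpl promoter 3 was the 1 of 10 bone promoters higher for H3K27me3, from 8 to 13 reads, against 5.11% of all. It was not enriched in either cell type and was not called by total reads. Cartilage genes had 37 promoters, of which 5 had enough H3K4me3 reads and 0 were called, while by total reads 1 was lower. Trps1 was the 1 of 3 cartilage promoters with enough reads that was higher for H3K27ac, against 17.0% of all. It went from 16 to 72 reads, at 2.91, but stood at 1.77 by total reads, which was not called. For H3K27me3, 0 of 19 cartilage promoters with enough reads were higher and 3 lower, against 5.11% and 6.75% of all. They were Acan, from 24 to 4 reads, and Col2a1 promoter 2, from 54 to 9, both at 0.288, and Col2a1 promoter 1, from 71 to 18, at 0.438. Both are main matrix genes of cartilage and targets of Sox9. Col2a1 kept enrichment at 4 of its 5 promoters in myotubes. For H3K4me1, 3 of 21 bone promoters were higher and 5 lower, and of 15 cartilage promoters 1 and 2, against 14.1% and 13.0% of all. By total reads these were 2 and 5 for bone and 1 and 4 for cartilage. For H3K36me3, 1 of 8 bone promoters was higher and 3 lower, and of 3 cartilage promoters 2 and 0, against 8.74% and 9.90% of all.

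Few promoters of genes that define the finished cell types were enriched for H3K4me3 or H3K27ac, where 31.6% and 31.3% of all promoters were in myoblasts and 32.6% and 31.2% in myotubes. Of 5 mature fat cell genes with 6 promoters, 0 were enriched for H3K4me3 or H3K27ac, with 10 and 18 H3K4me3 reads summed over them, Adipoq the highest in myoblasts and Lep in myotubes, and 1 and 2 of the promoters at 0. Of 4 genes of osteoblasts and osteocytes, 0 were, with 12 and 13 reads. Of 4 chondrocyte genes with 11 promoters, Col2a1 was enriched for H3K4me3 at 1 promoter in myoblasts, with 11 reads. Of 5 blood genes Sfpi1 (Spi1) was enriched for H3K27ac in myoblasts, with 8 reads, of 4 neuron genes 0 were enriched for either, and of 3 pluripotency genes Sox2 was enriched for H3K4me3, with 11 reads in each cell type. Other marks were found at some of these genes. H3K27me3 was enriched at 8 chondrocyte promoters in myoblasts, 5 of them of Col2a1, and at 6 in myotubes, at 2 and 2 of mature fat cells, 2 and 1 of osteoblasts and osteocytes, 3 and 0 of neurons, 2 and 0 of blood cells and 1 and 0 of pluripotent cells, against 7.65% and 4.08% of all promoters. Besides the chondrocyte genes, it was called lower at 1 of 3 neuron promoters with enough reads (Neurod1, from 33 to 6 reads) and 1 of 4 of pluripotent cells (Sox2, from 22 to 4), both at 0.314, against 6.75% of all. Sox2 held 72 and 36 reads of H3K4me2 and Col2a1 promoter 2 held 57 and 21, enriched in both cell types, and both were lower by total reads and not as centred. For H3K4me2, 1 osteoblast and osteocyte promoter of 1 with enough reads was higher, though not by total reads, and 1 neuron promoter of 1 was lower, against 11.5% and 9.55% of all. For H3K4me1, 1 osteoblast and osteocyte promoter of 2 was higher, and 1 chondrocyte promoter of 4 (Col2a1 promoter 3, from 17 to 4 reads) and 1 neuron promoter of 1 were lower, against 14.1% and 13.0%.

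The gene whose promoter was nearest to each member over the 12 log2 fold values, among 22199 genes, was Irf2 for Runx2 (distance 1.13), AI314180 for Pparg (1.14), Fam59a for Cebpa (1.5), Leng9 for Cebpb (1.5), Zfp503 for Cebpd (2.26), Mll3 for Sox9 (1.65), Nrg1 for Msx1 (1.71), Gm17402 for Msx2 (1.53), Gm5244 for Prdm16 (1.65) and Col4a4 for Sp7 (2.44). For members with several promoters these values are for promoter 2 of Runx2 and promoter 1 of Pparg, Sox9 and Prdm16. The median distance of all genes from a member was from 6.19 for Cebpa to 9.26 for Sp7. Sp7 and Cebpd thus had the least similar nearest genes.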

How the data were processed

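The members and gene lists were chosen with earlier results of these data known. The authors aligned the reads of 34 bp to mm9 with Mosaik 1.0.1384 and kept unique alignments, and the deposited read files hold 1 line per read, each a count of 1. The authors also deposited peaks with the score that MACS gave them, of which the lowest was 50 in each list. The sources used here do not give the settings of MACS or say whether PCR copies were removed. Reads on 20 chromosomes (the autosomes and X) were extended to 150 bp, and midpoints were counted with Python 3.11.15 code (numpy 2.4.6, pandas 2.3.3, scipy 1.17.1) over start sites and gene bodies of the GENCODE annotation of NCBIM37 (Ensembl release 65). The expected count is the library's reads over 2555806925 bases other than N. At that depth 3 reads are from 0.545-fold (myoblast H3K36me3) to 2.06-fold (myoblast H3K27ac) the genome mean, and a ratio with a count of 0 was taken against 3 reads. With 1 library per group no p-value was computed. Named genes are all members, all muscle genes, and pathway genes called for H3K4me3, H3K27ac or H3K27me3 (at most the 4 farthest from 1 per list, mark and direction). Other cell type genes enriched for H3K4me3 or H3K27ac and the gene nearest each member are also named. Further names are genes that overlap or lie close to a member, Neurod1 as called for H3K27me3, and Adipoq and Lep as highest for H3K4me3 in their list. Counting was tested on a small made library and calls on simulated Poisson counts. These hold counting error only, so the test says nothing on variation between libraries. Other windows, extensions, backgrounds, thresholds, scalings, read minimums and peak lists were tried.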

Additional observations from a re-analysis of the deposited data

How the results depend on the processing

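No paired analysis was possible because the labels give 1 library, replicate 1, for each mark and cell type. Of the recomputed counts and medians 328 stayed within 1.5 times the value reported and 58 did not, and no called ratio changed direction under any setting tried. The 11 called ratios kept their call in 85 recomputations and lost it in 27. Sox9 promoter 2 kept its H3K4me1 call under all 12, and Msx1 kept its H3K4me3 call in 11 (lost at 500 bp, 0.581) and its H3K27ac call in 11 (lost at 40 reads, since it has 39 in all). The Cebpa H3K27me3 call was lost in 4 of 12.

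With 500 bp either side, promoters enriched for H3K27me3 in myoblasts were 0, for H3K4me1 in myotubes 1 and for H3K36me3 in myotubes 2, and those lower were 1 for H3K4me3, 2 for H3K4me1 and 0 for H3K27me3. With 2 kb, 4 were enriched for H3K4me1 in myotubes, and 1 was lower for H3K4me3, 1 for H3K4me2 and 2 for H3K4me1. With 10 kb, a window added after seeing the data, 4 were enriched for H3K36me3 in myoblasts and 1 was higher for H3K4me2. At 10 kb 1 was lower for H3K4me3, 2 for H3K4me2, 7 for H3K4me1, 2 for H3K27me3 and 2 for H3K36me3. The H3K4me1 calls include Prdm16 promoters 2, 3 and 4, with at most 51 reads in a library. The windows of promoters 3 and 4 overlap, so the 7 are not separate results. The share of all promoters called at 10 kb is not given. Without extension 2 were lower for H3K4me1, and with 250 bp 1 was enriched for H3K4me1 in myotubes. With the deeper library thinned 0 were lower for H3K27me3. Against the local background 3 were enriched for H3K4me1 in myoblasts, 1 in myotubes, and 1 for H3K27me3 in myoblasts. With a bound of 1.5, 5 were enriched for H3K4me1 in myotubes, and with a bound of 3, 0 for H3K4me1 in myotubes and 0 for H3K27me3 in myoblasts.

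Overlap with a deposited peak gave 9 promoters for H3K27me3 and 1 for H3K27ac in myoblasts, and 1 for H3K4me1 in myotubes. With the lists exchanged it gave 1 for H3K27me3 in myoblasts and 1 for H3K4me1 in myotubes. Peaks of score 100 or more, from the lists as deposited, gave 8 for H3K27me3 and 0 for H3K27ac in myoblasts. These myoblast lists are exchanged relative to the reads, so the 8 are not promoters with strong H3K27me3. In myotubes such peaks gave 0 for H3K4me1 and 5 for H3K27ac. Scaled by total reads, 8 were lower for H3K4me2 (median 0.427), and 0 were higher and 3 lower for H3K27ac (median 0.590). Scaled by windows of 10 kb with no peak, 8 were lower for H3K4me2 (median 0.275), and 0 were higher and 3 lower for H3K27ac (median 0.585). At a ratio threshold of 1.5, 1 was higher and 3 lower for H3K4me2. At 40 reads, 1 was lower for H3K4me3, 2 for H3K4me1, 0 for H3K27ac and 0 for H3K27me3.

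For the gene lists calls by total reads, and for the intragenic sites centred ratios, were added after seeing the data and stand beside the values. Gene bodies lower for H3K36me3 were 0 and higher for H3K27me3 1 when scaled by total reads, and 2 were lower for H3K27me3 without 1 kb around each start. Intragenic H3K4me1 peaks of score 100 or more numbered 29 in myoblasts and 1 in myotubes, and 0 of the latter overlapped H3K27ac. Among peaks of any score, 15 overlapped H3K27ac in myoblasts with the lists exchanged. Depth limits the promoter ratios, since 3 of 16 member promoters held 20 reads of H3K27me3 and 2 of H3K36me3.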

Other observations

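In the window of 10 kb either side of the start, Msx2 lost H3K4me2 (114 to 41 reads, ratio 0.378, interval 0.258 to 0.544) and H3K4me1 (70 to 24 reads, 0.367, interval 0.221 to 0.591), while in its 1 kb window H3K4me2 was not called and H3K4me1, with 15 and 4 reads, held too few reads for a call. Windows of 10 kb with no peak held 24.4% of myoblast and 37.9% of myotube H3K4me2 reads, the widest gap among the 6 marks.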
